A study of Mus musculus with 48 samples.

Results

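The genes described are 9 that build or accompany the adherens junction, and they were picked by name: Cdh1, Ctnna1, Ctnnb1, Ctnnd1, Jup, Vcl, Afdn, Nectin2 and Epcam. All 9 symbols were found through the GRCm38 annotation among the 49671 genes counted in 48 single cells. The cells came from the inner cell masses (ICMs) of 3 mouse blastocysts at E3.75, obtained by natural mating between mice with the Pdgfra H2B-GFP/+ allele, a knock-in that puts nuclear green fluorescence under the control of Pdgfra, and F1 hybrids (C57BL/6JxCBA/J). The embryos were themselves positive for Pdgfra H2B-GFP/+. According to the methods they were collected for a salt-and-pepper pattern of GFP-positive cells in the ICM and a proper GFP intensity. All 48 cells come from embryos of this cross and no treatment separates them, while the sample titles call them WT. After acid Tyrode's solution had removed the zona, immunosurgery had removed the trophectoderm and Accutase with trypsin had separated the cells, each cell went through Smart-seq2, a full-length cDNA method. Each cell carries the name of its well, with 6 letters and 8 wells per letter, and its embryo is not labelled, so the 48 cells are 1 sample, SDs give the spread between cells, and no test between cells was made.

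E-cadherin, the product of Cdh1, binds its like on the neighbouring cell and holds β-catenin (Ctnnb1) or its relative plakoglobin (Jup) on its tail, while p120 catenin (Ctnnd1) holds the membrane-proximal part of the tail and keeps the cadherin at the surface. α-catenin (Ctnna1) ties this complex to actin and recruits vinculin (Vcl) under tension; nectin-2 (Nectin2) is an adhesion receptor of the immunoglobulin superfamily that afadin (Afdn) links to actin, and EpCAM (Epcam) is an epithelial adhesion glycoprotein that associates with claudins. E-cadherin adhesion is needed for compaction and for an intact blastocyst, whose ICM parts into epiblast and primitive endoderm.

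Progenitors of epiblast (pEPI, 25 cells) and of primitive endoderm (pPrE, 23 cells) were taken as the branches of the dendrogram that the study drew from these cells' own profiles, and a difference between branches is therefore not independent of the grouping. The libraries held 1718970 to 7342785 counts on genes, with a median of 3751329 in pEPI and 4251373 in pPrE cells, and 9202 to 11547 genes had a count in a cell. Levels are in FPKM, counts per kilobase of exon, scaled for library size, and only on this scale are genes compared with each other. Of the genes in the table, 21943 had a count in any cell and 10880 had a mean of at least 1 FPKM, and all 9 genes described were among the latter. Intervals of 95% on counts and on ratios treat each read as independent and leave out the spread between cells. The reads carry no molecular identifiers and cannot be taken as independent molecules, so these intervals are probably too narrow even for counting error. Intervals on shares of cells treat the cells as independent draws, although their embryos are not labelled. No pair of cells had nearly the same profile: the highest Pearson r of log2(FPKM + 1) between 2 cells was 0.817, with a median of 0.749. Counts on 4 genes of the Y chromosome (Kdm5d, Uty, Eif2s3y and Ddx3y) divided the cells without a middle ground, into 29 with at least 242 and 19 with at most 1, and the branches are also compared within each set, where a number of calls change.

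Epcam (ENSMUSG00000045394, chromosome 17, 87635979 to 87651129) had the most RNA of the 9 per length, from 52.5 to 511 FPKM with a median of 179.6 and a mean of 201.6 ± 103 (SD, n = 48 cells). It ranked first of the 9 in 46 cells, and Cdh1 ranked first in the other 2. Cdh1 (ENSMUSG00000000303, chromosome 8, 106603351 to 106670246) ran from 18.1 to 142.9 FPKM, with a mean of 61.1 ± 23, and had the lowest coefficient of variation of the 9, 0.376. Ctnna1 (ENSMUSG00000037815, chromosome 18, 35118859 to 35254779) followed with 36.3 ± 14.9 FPKM. The β-catenin gene Ctnnb1 (ENSMUSG00000006932, chromosome 9, 120929216 to 120960507) had 30.8 ± 12.6 FPKM. Nectin2 (ENSMUSG00000062300, chromosome 7, 19716644 to 19750483) had 27.1 ± 13.3 FPKM. These 5 genes and Jup were counted in 48 of 48 cells, a share whose exact binomial interval is 92.6% to 100%. Jup (ENSMUSG00000001552, chromosome 11, 100368958 to 100397763) spanned the widest range relative to its lowest value among these 6, from 0.679 FPKM in well A5 to 53.0 in well C8, with a mean of 12.7 ± 10.9.

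Afadin, p120 catenin and vinculin had the least RNA. Afdn (ENSMUSG00000068036, chromosome 17, 13760539 to 13906150) had 3.59 ± 2.73 FPKM and a count in 47 of 48 cells (97.9%, 88.9% to 99.9%). Ctnnd1 (ENSMUSG00000034101, chromosome 2, 84600071 to 84650765) had 2.83 ± 1.92 FPKM, also from 47 cells. Exon overlap bears on this value: 61.2% of the annotated exon bases of Ctnnd1 also belong to Gm28635 on the same strand, which received 0 counts. Reads lying wholly on shared bases fit both genes alike, so with none given to Gm28635 they were probably not counted for Ctnnd1 either. Reads only partly on shared bases may or may not have been counted, since the overlap mode is not stated. The value of 2.83 FPKM is therefore probably too low. With all reads on shared bases left out, the same counts belong to the remaining 2837 bases and give 7.3 ± 4.95 FPKM, above Afdn treated alike (3.67 ± 2.79). Vcl (ENSMUSG00000021823, chromosome 14, 20929398 to 21033676) was counted in 34 of 48 cells (70.8%, 55.9% to 83.0%) with a mean of 1.497 ± 2.08 FPKM and the highest coefficient of variation, 1.39. Its neighbour Ap3m1 shares 25.5% of the Vcl exon bases on the other strand and had 12939 counts.

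In this order of mean FPKM, 3 gaps between neighbours were larger than the larger SD of the pair: Epcam above Cdh1 (in 46 of 48 cells), Cdh1 above Ctnna1 (37 cells) and Nectin2 above Jup (41 cells). Only the first of these held with the longest transcript as gene length, where Cdh1 had 63.1 and Ctnna1 62.6 FPKM, and Nectin2 34.6 and Jup 25.5. Ctnna1, Ctnnb1 and Nectin2 did not differ beyond their spread, and neither did Jup and Afdn, Afdn and Ctnnd1, or Ctnnd1 and Vcl. Relative to E-cadherin in the same cell, the median ratio of FPKM was 0.577 for Ctnna1. It was 0.474 for Ctnnb1 and, depending on the shared exons, 0.0385 for Ctnnd1 with all its exon bases as length or 0.0993 with only those it does not share, while Epcam had a median of 2.89 times the Cdh1 level. E-cadherin was the main classical cadherin by RNA: Cdh1 made up a median of 92.0% of the summed FPKM of Cdh1, Cdh2 and Cdh3, and over 50% in 47 of 48 cells, the exception being the pPrE cell in well F7 (49.1%). Nectin2 held the same place among the 4 nectin genes, with a median of 95.8% of their summed FPKM and a lowest share of 57.4%.

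Whether adhesion genes differ between the sorting lineages is the question behind the comparison of branches. A gene was called when its mean FPKM differed more than 1.5-fold. Of the 9 genes, 1 was higher in pPrE, Afdn, where 12.3% of the 10880 genes were, and 2 were lower in pPrE, Jup and Epcam, where 16.4% were. The other 6 were within 1.5-fold. The median log2 ratio of pPrE over pEPI was -0.25 over the 9 genes against 0.00 (0.0020) over all genes, and the median size of the log2 ratio was 0.35 against 0.31. As a list, then, the genes were called at close to the rate of the rest of the transcriptome, and what follows concerns single genes.

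**Figure D1:**
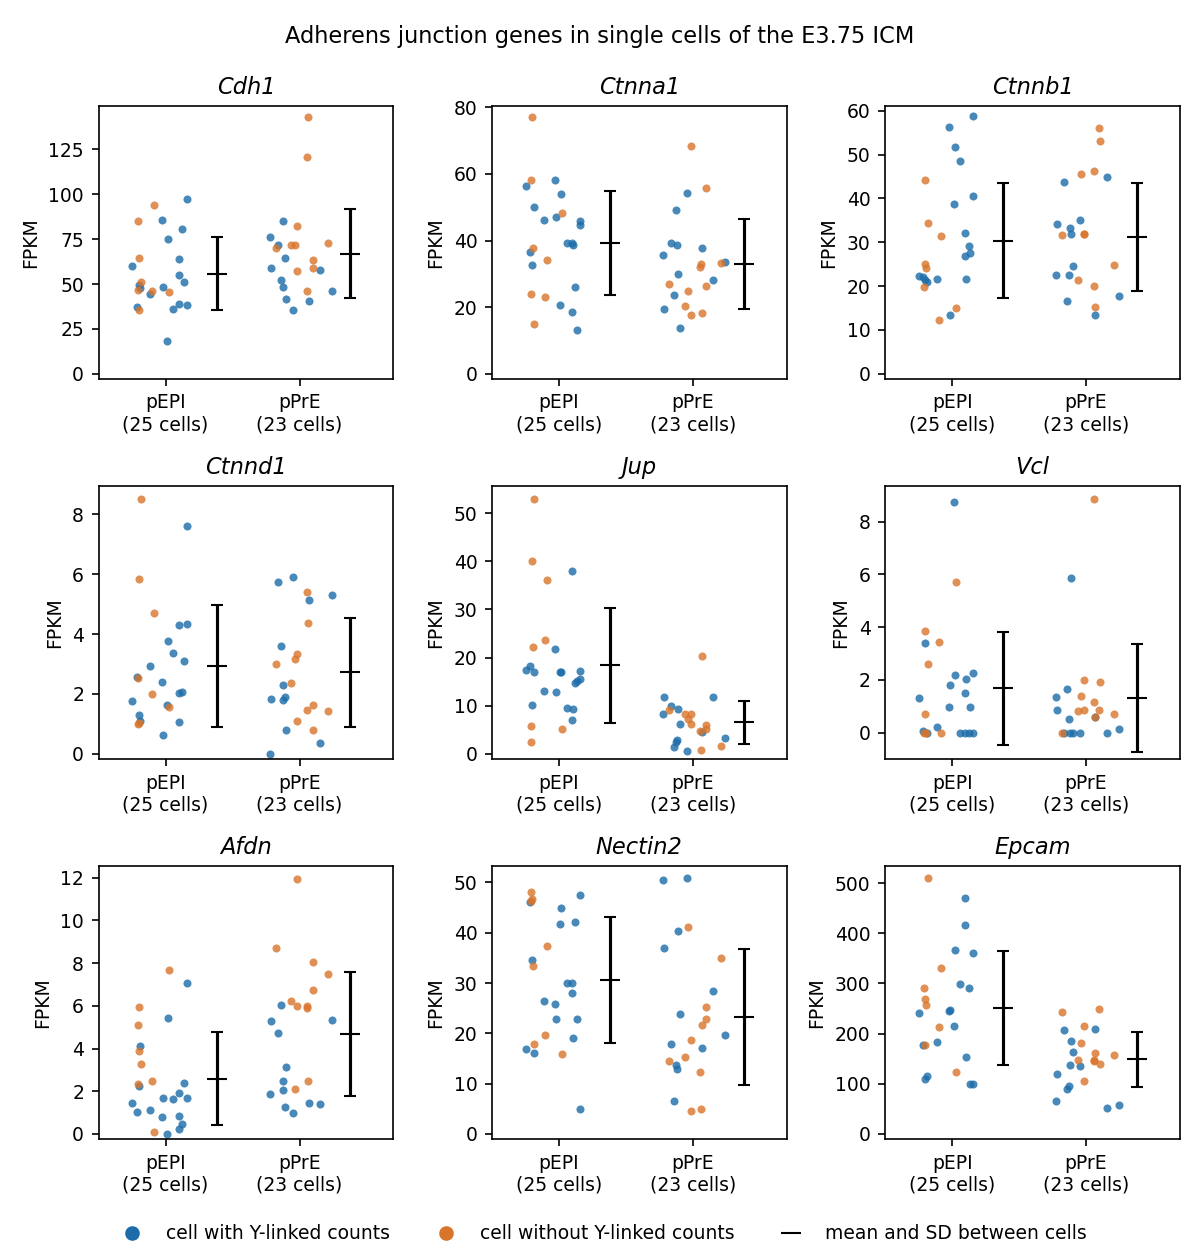
FPKM of each gene in each of the 48 cells by branch, with 1 point per cell, blue for cells with and orange for cells without Y-linked counts, and the mean with its SD beside the points. Jup and Epcam reach their highest values in pEPI cells, at 53.0 and 511 FPKM, Afdn reaches its highest value in a pPrE cell, at 11.9 FPKM, and the branches overlap for all 9 genes.

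Jup, which encodes plakoglobin, a catenin shared by adherens junctions and desmosomes, differed most. In pEPI cells it ran from 2.45 to 53.0 FPKM with a median of 16.95, and in pPrE cells from 0.679 to 20.3 with a median of 6.11. The branches overlapped, with the highest 3 values in pEPI wells C8, F8 and E3 and the lowest in pPrE well A5, and a pPrE cell was above a pEPI cell in 13.7% of pairs. The means were 18.4 ± 12.03 FPKM (SD, n = 25 cells) and 6.55 ± 4.51 (SD, n = 23 cells), from 11692 counts (11481 to 11906) and 4430 counts (4301 to 4562). That is a log2 ratio of -1.49 (approximate counting interval -1.54 to -1.44), or 2.81-fold less in pPrE. The difference of 11.8 FPKM was larger than the SD between pPrE cells and slightly smaller than that between pEPI cells. Plakoglobin RNA was lower in pPrE within all 6 well letters, with log2 ratios from -2.27 to -0.71. The labels do not make a letter a replicate, here or for the genes below. Letter C held 2 pPrE cells and letter D 2 pEPI cells. The log2 ratio of Jup was -1.39 within cells with and -1.74 within cells without Y-linked counts. No single cell carried it, since leaving out 1 cell at a time gave -1.63 to -1.37.

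Plakoglobin and β-catenin can take the same place on the cadherin tail, so their RNA was set side by side in each cell. Jup made up a median of 33.5% of the summed Jup and Ctnnb1 FPKM in pEPI cells (5.26% to 66.0%). In pPrE cells its share had a median of 16.04% (1.90% to 57.3%). Jup exceeded Ctnnb1 in 5 of the 25 pEPI cells and, among the 23 pPrE cells, in well F6 alone. The share and this count of cells depend on the gene length used. With the longest transcript as length, the mean share over the 48 cells was 33.6% in place of 27.5%. Ctnnb1 itself had 30.4 ± 13.2 FPKM in pEPI and 31.2 ± 12.3 in pPrE, a log2 ratio of 0.04 (0.01 to 0.07), made up of -0.20 within cells with and 0.41 within cells without Y-linked counts. In the first set the median share was 32.3% in pEPI and 19.5% in pPrE cells, and in the second 50.7% and 13.6%, so the share differed more where both genes leaned to opposite sides. Over the 48 cells, Jup followed the log2 ratio of Nanog to Gata6, the pair of opposing lineage factors, with a Spearman rho of 0.58, and within the pEPI and the pPrE branch rho was 0.30 and 0.28.

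Epcam ran from 99.2 to 511 FPKM in pEPI cells with a median of 245, and from 52.5 to 249.7 in pPrE cells with a median of 148. The upper part of the pEPI range, from 249.7 to 511 FPKM, held no pPrE cell, and the lower part of the pPrE range, below 99.2, held no pEPI cell; between them the branches overlapped, with the pPrE cell the higher in 21.7% of pairs. Mean levels were 250.5 ± 114 FPKM and 148 ± 55.4, from 54965 counts (54506 to 55426) and 32981 counts (32626 to 33339), a log2 ratio of -0.76 (-0.77 to -0.74) or 1.69-fold less in pPrE. The difference of 102 FPKM was larger than the SD between pPrE cells and smaller than that between pEPI cells. Every well letter gave a lower Epcam mean in pPrE, with log2 ratios from -1.21 to -0.45, and the ratio was -0.93 within cells with and -0.66 within cells without Y-linked counts. Epcam also followed the log2 ratio of Nanog to Gata6 (rho 0.53 over 48 cells, 0.19 within pEPI and 0.41 within pPrE).

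EpCAM associates with claudin-7 and other partners in the membrane, and its extracellular part is cut by the protease matriptase, the product of St14, which the inhibitors HAI-1 (Spint1) and HAI-2 (Spint2) restrain. Of 11 such partners, 9 had a mean of at least 1 FPKM; 7 were over 1.5-fold lower in pPrE, where 16.4% of all genes were, and none was higher, with a median log2 ratio of -1.68. Cldn6 and Cldn3 reached that minimum through their pEPI cells alone, which favours the call; with the minimum set on each branch's mean, 5 of 7 partners were lower, against 13.01% of all genes, with a median of -1.44. The 5 partners called with the minimum on each branch were lower past the fold within cells with and within cells without Y-linked counts. So were Cldn6 and Cldn3, whose calls the first minimum favours. Set apart here after its values were seen, the list kept 5 genes past the fold when medians replaced means: Cldn6, Cldn3 and Cd9 left it and Fhl2 joined. The rule for named genes takes Cldn4, Cldn6 and Cldn3, and the other partners are named after their values were seen. Cldn4 showed a mean of 34.7 ± 26.99 FPKM in pEPI cells against 2.44 ± 3.93 in pPrE cells (log2 ratio -3.83). Cldn6 had counts in 6 pEPI cells and 1 pPrE cell (A5), and Cldn3 in 8 pEPI cells and in 0 of 23 pPrE cells, which allows a share of cells with a count of up to 13.04%. The genes of the cleavage step went the same way: St14 had 8.59 ± 6.26 FPKM in pEPI and 2.69 ± 3.39 in pPrE, a log2 ratio of -1.68. For its inhibitor Spint1 the means were 128 ± 53.6 FPKM and 47.3 ± 24.7 (log2 ratio -1.44). Cldn7 was also past the fold at -1.98, as was the tetraspanin gene Cd9 at -0.66, whereas Spint2 (-0.52) and Fhl2 (0.16), whose product binds the released intracellular domain of EpCAM, were within it. Summed over the 11 genes, the partners had 644 ± 145 FPKM in pEPI and 324 ± 93.1 in pPrE cells. The summed trophectoderm markers, given further below, were also lower in pPrE (92.4 ± 51.9 against 56.4 ± 25.9 FPKM), and their part in the partners was not tested. That list was mixed: Tfap2c had the largest ratio of its measured genes, while Cdx2, Elf5, Hand1, Gata3 and Krt7 had counts in few cells. Cell by cell, the correlation with Epcam was 0.54 for St14 (0.52 within pEPI, 0.14 within pPrE), 0.53 for Cldn4 (0.58 and -0.08) 0.53 for Cldn7 (0.26 and 0.28) and 0.51 for Spint1 (0.04 and 0.12). The closest to Epcam within pPrE cells was Fhl2, with 0.47 there, -0.37 within pEPI and 0.10 over all cells. Cd44 had no count in 48 cells, which allows a share of cells with a count of up to 6.25%.

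Afdn encodes afadin, the actin-binding adaptor of the nectins. Its FPKM ran from 0 to 7.69 in pEPI cells with a median of 1.91, and from 0.983 to 11.9 in pPrE cells with a median of 5.30. Both branches shared most of the range, and the pPrE cell was the higher in 72.5% of pairs. With 2.60 ± 2.19 FPKM from 2537 counts (2439 to 2638) in pEPI and 4.68 ± 2.88 from 4821 counts (4686 to 4959) in pPrE, the log2 ratio was 0.85 (0.78 to 0.92), or 1.80-fold. The difference of 2.08 FPKM did not exceed the SD of either branch, and the direction held in 5 of 6 well letters. The call did not hold throughout: among cells with Y-linked counts the log2 ratio was 0.58, just short of 1.5-fold, and 0.76 within cells without them; without the 8 cells of letter D it was 0.52, and between the 2 Ward clusters 0.28.

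Afdn differed further between cells with and without Y-linked counts, a comparison made after that division had been seen. The 29 cells with Y-linked counts had 0 to 7.08 FPKM with a median of 1.697, and the 19 cells without them 0.101 to 11.9 with a median of 5.97. In 82.6% of pairs the cell without Y-linked counts was the higher, although the sets overlapped. Means of 2.42 ± 1.90 and 5.39 ± 2.86 FPKM gave a log2 ratio of 1.16 (1.09 to 1.23). The ratio was 0.94 within pEPI cells, with 2.01 ± 1.88 and 3.85 ± 2.38 FPKM. Among pPrE cells it was 1.12, with 2.997 ± 1.85 and 6.51 ± 2.73 FPKM, so afadin RNA differed along both divisions. By this measure 1 of the 9 genes was over 1.5-fold higher in cells without Y-linked counts, where 15.4% of all genes were, and 0 were lower, where 14.3% were. Well letter D held no cell with Y-linked counts and letters A, B and E held no cell without them, and only C and F held both kinds. There the difference was not uniform: in C the 6 cells without Y-linked counts had 4.23 ± 2.82 FPKM and the 2 with them 1.56 ± 0.187, whereas in F the 5 without had 4.498 ± 2.501 and the 3 with 6.17 ± 0.841, a log2 ratio of -0.46. The division cannot be told apart from the embryo, and can be told apart from the well letter only within these 2 letters.

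The remaining 6 genes were within 1.5-fold between the branches, and for each the difference of means was smaller than the SD between cells. Cdh1 had a log2 ratio of 0.26 over all cells, 0.05 within cells with and 0.41 within cells without Y-linked counts. Ctnna1, the link to actin, had 39.4 ± 15.6 FPKM in pEPI cells against 33.03 ± 13.5 in pPrE cells (log2 ratio -0.25, interval -0.28 to -0.23). With Cdh1 and Ctnna1 leaning to opposite sides, the median ratio of Ctnna1 to Cdh1 in a cell was 0.722 in pEPI and 0.458 in pPrE. Nectin2 leaned toward pEPI with 30.6 ± 12.5 against 23.3 ± 13.5 FPKM (log2 ratio -0.39, interval -0.44 to -0.35), and within cells without Y-linked counts its ratio of -0.75 was past the fold, against -0.15 within cells with them. The p120 catenin gene Ctnnd1 had 2.92 ± 2.04 and 2.73 ± 1.82 FPKM (log2 ratio -0.10, interval -0.19 to -0.01), and its ratio turned from 0.10 within cells with to -0.41 within cells without Y-linked counts. Vcl was counted in 17 cells of each branch and had 1.67 ± 2.12 and 1.31 ± 2.06 FPKM, a log2 ratio of -0.35. It was past the fold in 3 of 15 alternatives, at -0.72 within cells with Y-linked counts (-0.23 within cells without), -0.74 without letter D and -0.76 between Ward clusters. Single cells moved the Vcl value as well: the cell in A4 held 25.1% of its pEPI counts and that in D2 27.8% of its pPrE counts, and the ratio was -0.07 without the first and -0.79, past the fold, without the second.

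Correlation over cells asks whether the partners of E-cadherin vary with it from cell to cell; the cells share library preparation, and rho is a description with no p. Of the other 8 genes, 0 had a Spearman rho with Cdh1 above 0.3, where 3.52% of all genes did, and 0 of 8 were below -0.3, where 3.33% were. Afdn was the highest, at 0.20, followed by Ctnnb1 at 0.15, and Jup the lowest at -0.03. Afdn turned from 0.26 within cells with to -0.24 within cells without Y-linked counts, and Vcl from 0.19 to -0.34, past -0.3. The median over the 8 genes was 0.08, inside the quartiles of all genes (-0.12 and 0.11). Within pEPI cells Ctnna1 (0.27), Nectin2 (0.27), Ctnnd1 (0.26), Epcam (0.25) and Ctnnb1 (0.24) were all nearer to 0.3, but within pPrE cells these were 0.03, -0.02, -0.11, 0.21 and -0.08, and there Jup reached 0.30. The correlation of Cdh1 with the total count of the cell was 0.27 and that of Ctnnb1 0.23, and given the total count the rank partial correlation of Ctnnb1 with Cdh1 was 0.09.

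Among 3965 genes with a mean of at least 10 FPKM and a count in at least 40 cells, likeness to Cdh1 was ranked by Spearman rho over the 48 cells. The protein disulfide isomerase gene P4hb came first with 0.61 (0.61 within pEPI, 0.56 within pPrE). Hspa5, the chaperone BiP, had 0.58 (0.59 and 0.58), and Pdia6, another disulfide isomerase, 0.53 (0.60 and 0.44). The glycolytic genes Pfkl and Eno1 had 0.52 and 0.51, and Eno1 was less like Cdh1 within pPrE (0.24) than within pEPI (0.70). P4hb and Hspa5 themselves had a rho with the total count of 0.29 and 0.26. At the other end stood the cytochrome c oxidase gene Cox6a1 (-0.52, with a rho of -0.42 with the total count), the complex III assembly gene Uqcc3 (-0.50), the signal recognition particle gene Srp14 (-0.49), Rnf14 (-0.49) and the RNase P subunit gene Rpp38 (-0.47). The part of depth in these relations to Cdh1 was not tested. Srp14 had no such relation within cells without Y-linked counts, where its rho was 0.05. For Epcam, the genes most alike were Ephx2 (0.70), Tpd52 (0.64) and Calcoco2 (0.62), and those least alike Glipr2 (-0.60), Cdk4 (-0.60) and the laminin gene Lamb1 (-0.57), a marker of primitive endoderm. Tpd52 followed Epcam within pEPI (0.67) and hardly within pPrE (0.14).

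Among the 36 pairs that the 9 genes form, 2 had a rho above 0.3 and 2 below -0.3 over the 48 cells. No share over all pairs of genes stands beside these counts, so the pairs are given as single values and not as a result about the list. Jup and Epcam went together with 0.48, which was 0.33 within pEPI and 0.22 within pPrE. Nectin2 and Epcam had 0.35 (0.37 within pEPI and 0.04 within pPrE), and the part of the branches in the value over all cells was not tested. Afdn ran opposite to Jup (-0.35), with -0.07 within pEPI and -0.11 within pPrE, and with -0.24 within cells with and -0.36 within cells without Y-linked counts. The part of either division in the value over all cells was not tested. Afadin and its receptor nectin-2 also ran opposite to each other, at -0.35 over all cells, 0.03 within pEPI and -0.47 within pPrE. The 6 pairs of the core complex, formed by Cdh1, Ctnna1, Ctnnb1 and Ctnnd1, lay between -0.11 and 0.15. Ctnnb1 and Ctnnd1 had 0.44 within pEPI and -0.36 within pPrE, and 0 of the 36 pairs passed 0.3 in the same direction in both branches.

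**Figure D2:**
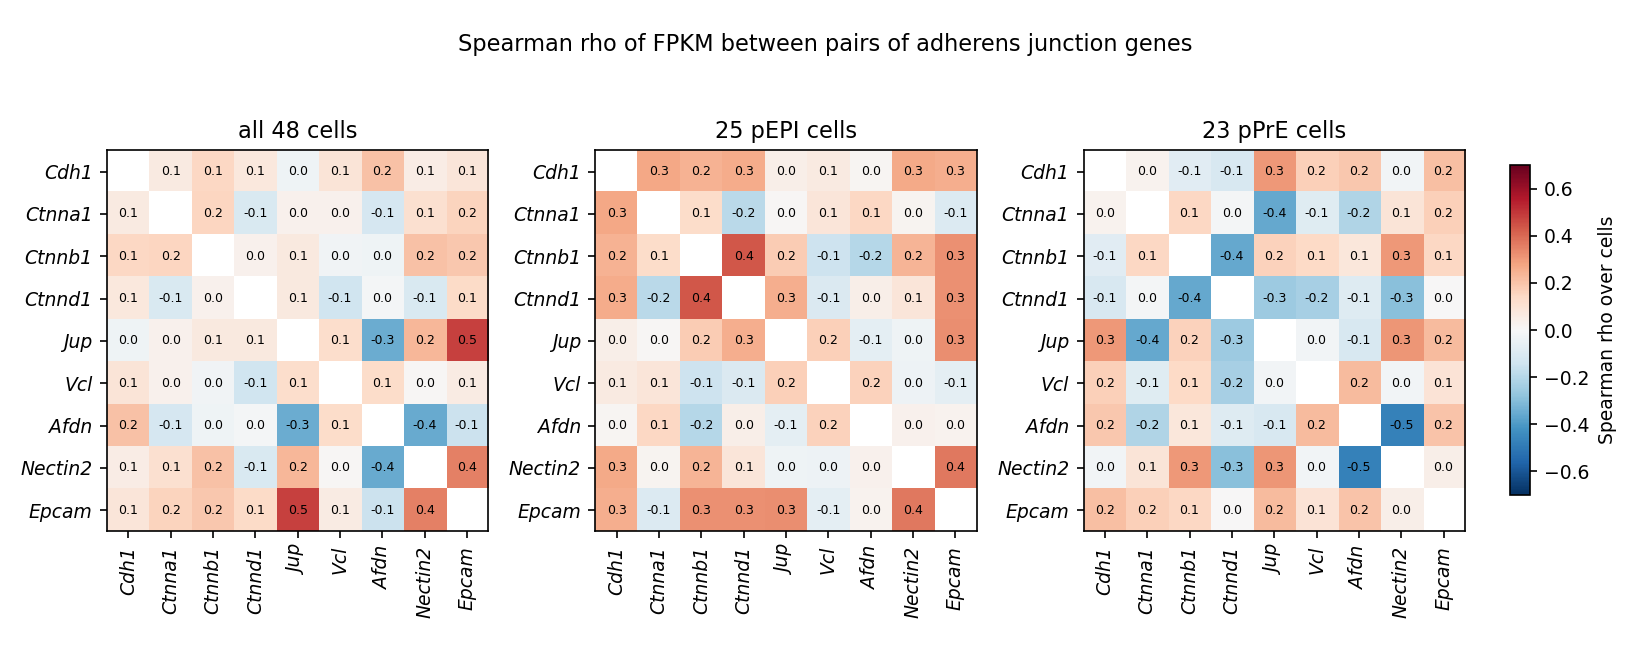
Spearman rho of FPKM for each of the 36 pairs of genes, over all 48 cells, over the 25 pEPI cells and over the 23 pPrE cells, as colour and as a value rounded to a single decimal. Over all cells the deepest colours are those of Jup with Epcam (0.48), Nectin2 with Epcam and Afdn with Nectin2.

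The wider machinery was read through 11 lists of 128 genes known for their part in the junction, of which the list of Epcam partners is given above. In the other 10 lists 74 genes were measured, and 13.5% were higher and 22.97% lower in pPrE, against 12.3% and 16.4% of all genes, so the genes that follow are given as single values and not as a shift of the lists. Of the 27 called, 13 kept their call within both sets of cells by Y-linked counts, close to the 50.03% of all called genes that did. The other classical cadherins had 2 of 6 genes above the minimum, and both were lower in pPrE: Cdh2 with a log2 ratio of -0.63 and Cdh3 with -0.61, each of which fell short of the fold without a single cell (Cdh2 -0.56 without F1, Cdh3 -0.29 without C4). Without the pPrE cell in F7, Cdh3 was at -1.84, and the Y-linked division put it at -3.63 in the cells with such counts and -0.78 in the others, where Cdh2 had -0.70 and -0.38. Of 6 other catenins and armadillo genes, 3 were measured and 2 were lower in pPrE, namely Arvcf, a relative of p120 catenin, with 5.79 ± 4.42 against 2.82 ± 2.58 FPKM (log2 ratio -1.04), and the α-catulin gene Ctnnal1 (-0.87, or -0.57 without the pEPI cell in F8). The mean of Ctnnal1 rests on a few pEPI cells of up to 17.3 FPKM, and its median was lower in pEPI (0.0352 FPKM) than in pPrE (1.38). The α-catenin genes Ctnna2 and Ctnna3 had 0 and 1 count in all, which leaves Ctnna1 as the α-catenin gene with RNA here. Among 8 nectins and nectin-like genes, 3 were measured, and the poliovirus receptor gene Pvr was lower in pPrE (-1.13).

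Actin linkers and junction scaffolds had 17 of 23 genes measured, with 3 higher and 4 lower in pPrE. Lima1 reached the minimum of 1 FPKM through its pEPI cells alone and Limd1 through its pPrE cells alone (1.89 against 0.97 FPKM in pEPI), which favours their calls. Lima1, whose product EPLIN binds α-catenin and bundles actin, had 7.64 ± 5.30 FPKM in pEPI and 0.720 ± 1.45 in pPrE. With a log2 ratio of -3.41, counts in 24 pEPI cells of 25 but 9 pPrE cells of 23, it parted the branches further than any of the 9 genes. The non-muscle myosin gene Myh10 (-1.10) and the α-actinin gene Actn1 (-0.72) were lower too. Higher in pPrE by the mean were Ajuba (log2 ratio 1.498), Limd1 (0.96) and Lpp (0.91). The medians of Ajuba were close, at 3.13 FPKM in pEPI and 3.61 in pPrE, and the pPrE cell was the higher in 57.2% of pairs. For Limd1 the medians were 0 and 0.0975 (52.9% of pairs), and for Lpp 1.20 and 3.40 (70.1% of pairs). Within cells with Y-linked counts Ajuba (0.52), Limd1 (0.53) and Actn1 (-0.58) fell short of the fold, as Myh10 (-0.29) did within cells without them. Of 8 desmosome genes, in whose plaque plakoglobin also sits, 3 were measured: Dsc2 (1.05) and Dsg2 (0.66) were higher and Perp (-0.91) was lower in pPrE. Dsc2 and Perp turned within cells with Y-linked counts, to -0.15 and 0.27, and Dsg2 was at 0.55 without the pPrE cell in C5 and at 0.41 within cells without Y-linked counts. The plaque gene Dsp had counts in 4 cells of each branch.

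Genes for the turnover and cleavage of cadherins, had 14 of 17 measured, and over all cells 14 of 14 were within 1.5-fold, with a median log2 ratio of 0.10. By Y-linked counts 7 of the 14 passed the fold within a set, as did 35.8% of all genes within the fold over all cells, among them Adam10, at -0.53 within cells with and 0.94 within cells without, whereas the recycling GTPase gene Rab11a had 0.42 and 0.58. Of 7 partners of afadin and the GTPase Rap1, 5 were measured and 2 were lower in pPrE, Ssx2ip, whose product binds afadin (-1.33), and Rapgef1 (-0.87, but 0.05 within cells with Y-linked counts). Rapgef1 reached the minimum of 1 FPKM through its pEPI cells alone (1.71 against 0.93 FPKM in pPrE), which favours its call. In the β-catenin destruction complex, 10 of 13 genes were measured, with Tnks higher (1.02) and Btrc (-0.98) and Siah1a (-0.91) lower. Among 9 measured of 14 genes of β-catenin transcription, Tcf7l1 (0.94) and Pygo2 (0.61) were higher and Tcf7l2 (-1.21) was lower; Pygo2 was at 0.49 without the cell in D7 and at 0.26 within cells with Y-linked counts, and Tcf7l1 at 0.30 within cells without Y-linked counts. The medians of these lists were near 0, at -0.12 and 0.06. Axin2, a common target of β-catenin signalling named here after its value was seen, had 5.61 ± 4.82 and 5.05 ± 4.05 FPKM in the branches (log2 ratio -0.15).

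**Figure D3:**
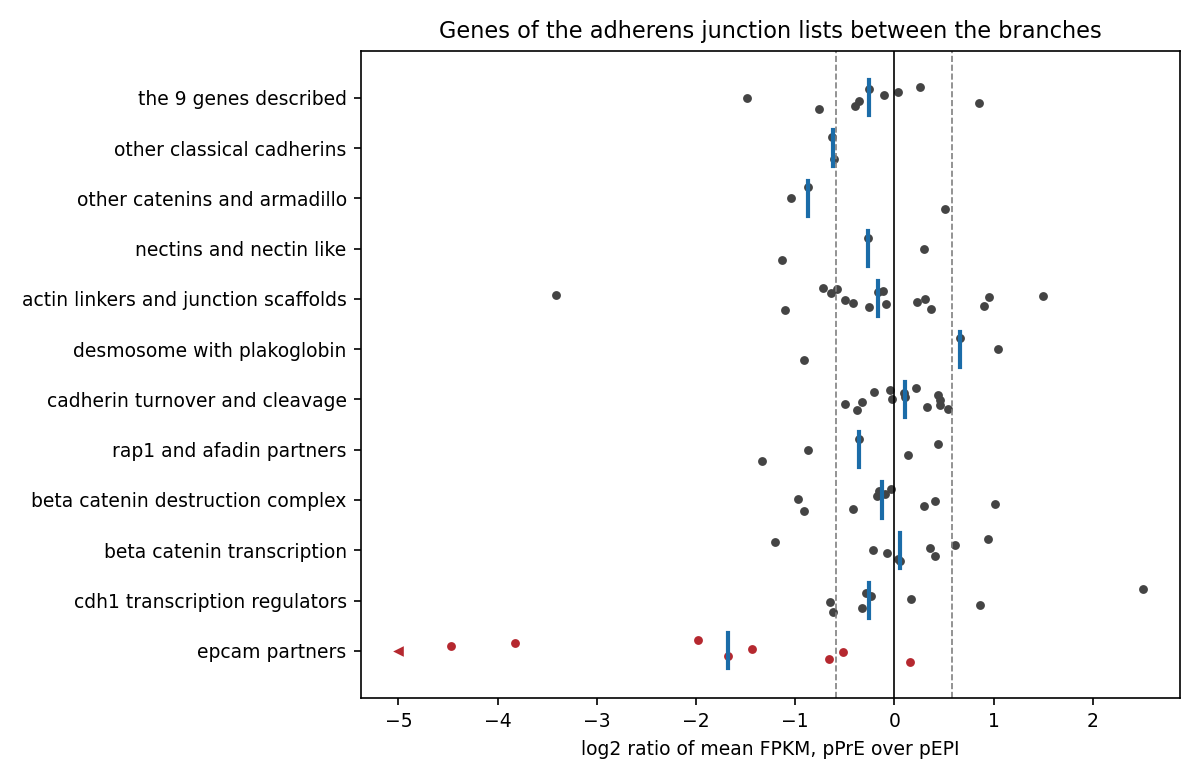
Log2 ratio of mean FPKM, pPrE over pEPI, with 1 point per gene of at least 1 FPKM in the 9 genes and in each of the 11 lists, a blue bar at the median of each list and dashed lines at 1.5-fold. The red points are the Epcam partners, whose median is -1.68, and the red triangle at the left edge is Cldn3, which had no count in pPrE cells and so has no ratio.

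Of 15 genes known to regulate Cdh1 transcription 8 were measured, with Snai1 and Klf5 higher and Klf4 and Esrp2 lower in pPrE and the other 4 within the fold, where 12.3% and 16.4% of all genes were higher and lower; Snai1 and Klf5 kept their call in both sets by Y-linked counts. Snai1, which encodes the zinc finger repressor Snail, ran from 0 to 68.0 FPKM in pEPI cells with a median of 7.67, and from 0 to 226 in pPrE cells with a median of 46.99. The means of 11.7 ± 14.7 and 66.4 ± 52.0 FPKM gave a log2 ratio of 2.50 (2.43 to 2.57), with the pPrE cell the higher in 91.3% of pairs. Although Snail is known to repress Cdh1, the rho of Snai1 with Cdh1 was 0.33 over the 48 cells, 0.33 within pEPI and 0.18 within pPrE. Klf5 had 27.7 ± 8.19 and 50.2 ± 19.9 FPKM (log2 ratio 0.86) and a rho with Cdh1 of 0.33, from 0.17 within pEPI and 0.40 within pPrE. Klf4 (-0.65) and Esrp2 (-0.61), which encodes an epithelial splicing regulator, were near the fold and fell inside it without the cell in F4, at -0.55 and -0.54. Klf4 was at -0.33 within cells with and -1.16 within cells without Y-linked counts, and Esrp2 inside the fold in both sets (-0.54 and -0.53). Snai2 had no count in pPrE cells and Zeb2 none in any cell.

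Snai1 and the members called lower in pPrE, Jup and Epcam, went in opposite directions between the branch means. From cell to cell, the rho of Snai1 with Epcam was -0.30 over all cells, -0.007 within pEPI and 0.31 within pPrE. The part of Snail in the levels of these members was not tested. The promoters were searched for the E-box that Snail factors are known to bind, CAGGTG, whose other strand reads CACCTG. RefSeq windows of the 250 bases before the transcript start (GRCm38.p6) were searched for 7 of the 9 genes, 9 windows in all, without Cdh1 and Ctnna1. Of 32851 windows of this length, 17.2% hold at least 1 such match and 2.06% at least 2. The Epcam window, chr17:87635729-87635978 on the plus strand, holds 2, at -187 and -19 from the start, the Nectin2 window, chr7:19749574-19749823 on the minus strand, holds 1 at -53, and the other 7 windows hold 0, that of Jup (chr11:100397791-100398040, minus strand) included. The sequences of these 3 promoters are shown 5′ to 3′, with the matches in capitals, as a description of the letters and not of binding.
Epcam: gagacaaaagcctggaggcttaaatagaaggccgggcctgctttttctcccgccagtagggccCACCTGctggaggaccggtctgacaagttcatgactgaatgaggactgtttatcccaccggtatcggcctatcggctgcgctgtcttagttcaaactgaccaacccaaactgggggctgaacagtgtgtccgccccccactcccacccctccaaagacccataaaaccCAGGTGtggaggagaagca
Nectin2: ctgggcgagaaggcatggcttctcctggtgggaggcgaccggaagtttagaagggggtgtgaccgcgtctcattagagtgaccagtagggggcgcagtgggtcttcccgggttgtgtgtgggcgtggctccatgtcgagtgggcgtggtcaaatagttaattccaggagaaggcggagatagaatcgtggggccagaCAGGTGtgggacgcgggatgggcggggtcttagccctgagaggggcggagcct
Jup: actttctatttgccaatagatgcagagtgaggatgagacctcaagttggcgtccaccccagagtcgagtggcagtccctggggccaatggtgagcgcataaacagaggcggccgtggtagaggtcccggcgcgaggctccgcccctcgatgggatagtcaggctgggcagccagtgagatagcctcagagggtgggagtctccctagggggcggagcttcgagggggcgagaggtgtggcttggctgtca

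Marker lists were read as a check on what the cells are. In pPrE, 14 of 14 measured markers of primitive endoderm were over 1.5-fold higher, and 8 of 10 epiblast markers were lower and 0 higher, as the construction of the branches from the same cells largely fixes. Of all genes, 12.3% were higher and 16.4% lower. Trophectoderm, which immunosurgery should have removed and in which junction genes are strong, had 6 of 11 markers measured. In pPrE 3 of them were lower and 0 higher, where 16.4% and 12.3% of all genes were. The summed level of the list was 92.4 ± 51.9 FPKM in pEPI and 56.4 ± 25.9 in pPrE cells. Krt8 was the most abundant, with counts in 46 cells. The 3 lower markers were Tfap2c, Krt18 (-1.17, counts in 13 cells) and Krt19 (-1.93, counts in 7 cells). Krt18 turned from -3.07 within cells with to 0.96 within cells without Y-linked counts. Krt8, within the fold over all cells, turned from -1.05 to 0.89. Krt19 had no count in cells without Y-linked counts and reached the minimum of 1 FPKM through its pEPI cells alone (2.97 against 0.783 FPKM in pPrE). Counts were few for Cdx2 (3 cells), Elf5 (5), Hand1 (5), Gata3 (9) and Krt7 (1). Other markers of the list were present, namely Tead4 in 47 cells with a mean of 18.2 FPKM, Tfap2c in 38 cells with 13.6 FPKM and a log2 ratio of -3.85, and Eomes in 22 cells with 3.2 FPKM, so that the list was mixed. With the summed markers the rho was 0.33 for Ctnnd1, -0.32 for Afdn, 0.31 for Jup and 0.19 for Epcam. With Krt8 alone it was 0.31, -0.02, 0.06 and 0.07 in the same order. Between Krt8 and Epcam it was -0.29 within pEPI and 0.63 within pPrE. The part of these markers in the levels of these genes was not tested.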

How the data were processed

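Single cells were sequenced by Smart-seq2, and the values used are the whole-number counts that the authors deposited for 48 cells; no column was left unused. According to the labels and methods, reads were aligned with STAR to mm10 and counted with HTSeq on Ensembl 87 genes, and libraries under 500000 mapped reads, with skewed gene-body coverage or apart by PCA were dropped; strand setting and overlap mode are not stated. FPKM was computed here from those deposited counts, with the union of exons in GENCODE M21 (GRCm38) and library sizes by the median of ratios. Branches were read by eye from the published dendrogram. Cells are 1 sample, so no p was computed.

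Summed counts have exact Poisson intervals and shares of cells exact binomial (Clopper-Pearson) intervals; where no cell had a count, the limit given is 3 cells of the total and concerns cells with a count. The interval of a log2 ratio is approximate: the exact interval for the summed counts' ratio was shifted, with its width kept, so that its own ratio fell on the ratio of mean FPKM. Genes were called at 1.5-fold and at a Spearman rho of 0.3 or -0.3, among genes with a mean of at least 1 FPKM. Cells with Y-linked counts had at least 100 over 4 genes. Exon overlaps came from the same annotation.

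The genes and lists were chosen with earlier results of these data known. Named are the 9 genes, up to 3 per list and direction with the largest ratios past the fold, the 5 genes most and least like Cdh1 (3 for Epcam) and the markers; others are named as chosen after their values were seen. The list totals include genes that are not reported here by name. Alternatives covered library size, thinning to 1718970 counts per cell, the Y-linked sets, each well letter left out, clusters by Ward and average linkage, medians, log2 values with a pseudocount of 1 or 0.1, a fold of 2, a minimum of 10 FPKM or of 1 FPKM in each branch, Pearson r, partial correlation, removal of branch means, each branch alone and the longest transcript as length. The steps were tested on simulated data. The work used matplotlib 3.10.9, scipy 1.17.1, pandas 2.3.3 and numpy 2.4.6 under Python 3.11.15.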

Additional observations from a re-analysis of the deposited data

How the results depend on the processing

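Over 15 alternatives, Jup stayed lower in pPrE with log2 ratios of -1.74 to -1.19 and Epcam with -0.93 to -0.66, past 1.5-fold in all 15. Afdn stayed higher in all 15 (0.28 to 1.47) and past the fold in 12. Vcl, within the fold over all cells, was past it in 3. Among the genes within the fold, Ctnnb1 kept its direction in 12 and Ctnnd1 in 11.

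The count of genes higher in pPrE was 0 in place of 1 in cells with Y-linked counts, without letter D, with Ward clusters, at a fold of 2 and among genes of at least 10 FPKM, where Afdn is not measured; the count lower was 1 (Jup) at a fold of 2 and 3 in 5 alternatives, with Vcl added in cells with Y-linked counts, without letter D and with Ward clusters, and Nectin2 in cells without Y-linked counts and by medians. Of the correlations with Cdh1, 17 of 120 moved by more than a nominal sampling error of rho for 48 cells, a limit also applied to the smaller sets of cells. Ctnnd1 was at -0.11 with and 0.25 without Y-linked counts, where Vcl was at -0.34 and Afdn at -0.24. Without letter A Nectin2 was at 0.21, and without letter F Ctnnd1 was at -0.10. In pEPI alone Ctnna1 was at 0.27, Ctnnd1 at 0.26, Nectin2 at 0.27, Epcam at 0.25 and Afdn at 0.01 (0.012). In pPrE alone Ctnnb1 was at -0.08 (-0.082), Ctnnd1 at -0.11 and Jup at 0.30. Pearson r put Vcl at -0.09 (-0.094), and with branch means removed Jup was at 0.18 and Epcam at 0.25. With the longest transcript as length, mean levels were 62.6 FPKM for Ctnna1, 44.1 for Ctnnb1 and 25.5 for Jup. The cause was not tested.

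Chosen after seeing the data were length without shared exons, which put Ctnnd1 at 7.3 FPKM, the Epcam partners, of which 4 of 5 were lower at a minimum of 10 FPKM (9.33% of all genes), and Afdn by Y-linked counts (0.85 to 1.81 over 12 alternatives, above 0 in all 12). Cldn4, among these 4 partners, reached the minimum of 10 FPKM through its pEPI cells alone (34.7 against 2.44 FPKM in pPrE), which favours its call.

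The 48 cells from 3 unlabelled embryos are 1 sample, so no difference has a replicate check, and the branches rest on leaf names read by eye from a published picture. Clustering here did not return them in full: Ward linkage gave 16 and 32 cells, which held 16 of 25 pEPI and 23 of 23 pPrE cells on their own side, and average linkage gave 12 of 25 and 21 of 23 with 11 cells unnamed. Low counts limit Vcl, Ctnnd1 and Afdn most.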
